A study of Arabidopsis thaliana with 4 samples.

Results

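The tau and phi glutathione transferases of Arabidopsis thaliana were followed across the cells of regenerating root tips. The members were chosen by name: 38 listed loci, comprising 28 tau genes (GSTU1 to GSTU28) and 10 phi genes (GSTF). Of these, 37 had a row among the 20511 genes of the expression matrix, 27 tau and 10 phi. GSTU15 was not analysed here. No expression value was used to choose them.

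The mutant lbd_quad was compared with wild type (WT). It carried the alleles lbd6, lbd36, lbd12 and lbd15, each in a gene of the LBD family of plant transcription factors, and WT carried none of them. In both genotypes the root tips of 7-day-old plants were cut off, the roots recovered for 16 h, and the new ends of primary roots were digested into protoplasts for droplet sequencing of transcript 3′ ends. Each genotype had 2 libraries. How many roots were pooled in each, and whether the libraries came from separate batches of plants, is not given in the sources used here, so p-values measure the spread between these libraries.

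Glutathione transferases join the tripeptide glutathione to reactive, electron-poor molecules, among them herbicides, explosives, oxidised lipids and plant defence compounds. Tau and phi are the plant classes that expanded most, largely through tandem duplication. The conjugates are moved into the vacuole by ABCC pumps. Many members are induced by stress hormones and xenobiotics through TGA transcription factors, which bind TGACG, and so serve as markers of cell stress in roots.

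The results turn on 5 tau genes, whose start regions are shown because the levels of 4 of them differed between the genotypes in at least one test and that of GSTU17 differed in its genotype effect between cell classes. Each runs 5′ to 3′ from 250 bases before to 50 bases after the annotated gene start on chromosome 1, taken from RefSeq assembly TAIR10.1, with TGACG or CACGTG on either strand in capitals. GSTU19 (AT1G78380) lies at chr1:29487958-29488257 on the minus strand, GSTU24 (AT1G17170) at chr1:5869293-5869592 on the plus strand, GSTU25 (AT1G17180) at chr1:5871774-5872073 on the plus strand, GSTU28 (AT1G53680) at chr1:20038070-20038369 on the plus strand and GSTU17 (AT1G10370) at chr1:3398309-3398608 on the minus strand.
GSTU19: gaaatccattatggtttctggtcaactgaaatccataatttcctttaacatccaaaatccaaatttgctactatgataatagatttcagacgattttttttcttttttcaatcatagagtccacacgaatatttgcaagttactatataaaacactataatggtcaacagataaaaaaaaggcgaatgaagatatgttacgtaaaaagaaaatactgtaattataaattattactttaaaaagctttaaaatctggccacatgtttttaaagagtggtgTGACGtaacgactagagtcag
GSTU24: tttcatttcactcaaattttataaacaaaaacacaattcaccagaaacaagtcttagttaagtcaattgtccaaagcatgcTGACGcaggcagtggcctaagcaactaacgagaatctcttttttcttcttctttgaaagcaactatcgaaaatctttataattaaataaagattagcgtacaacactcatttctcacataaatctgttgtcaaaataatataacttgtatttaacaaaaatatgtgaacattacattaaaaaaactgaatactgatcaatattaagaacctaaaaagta
GSTU25: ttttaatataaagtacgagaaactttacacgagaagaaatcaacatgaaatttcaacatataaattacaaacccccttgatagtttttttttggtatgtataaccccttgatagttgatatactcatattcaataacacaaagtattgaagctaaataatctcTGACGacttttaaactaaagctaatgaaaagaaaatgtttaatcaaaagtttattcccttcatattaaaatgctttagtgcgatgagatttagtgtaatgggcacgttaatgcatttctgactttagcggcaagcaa
GSTU28: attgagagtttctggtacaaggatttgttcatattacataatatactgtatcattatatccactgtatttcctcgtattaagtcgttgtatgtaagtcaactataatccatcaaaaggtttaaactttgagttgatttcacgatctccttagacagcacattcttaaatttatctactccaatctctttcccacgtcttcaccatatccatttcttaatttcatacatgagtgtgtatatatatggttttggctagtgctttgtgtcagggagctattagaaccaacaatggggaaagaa
GSTU17: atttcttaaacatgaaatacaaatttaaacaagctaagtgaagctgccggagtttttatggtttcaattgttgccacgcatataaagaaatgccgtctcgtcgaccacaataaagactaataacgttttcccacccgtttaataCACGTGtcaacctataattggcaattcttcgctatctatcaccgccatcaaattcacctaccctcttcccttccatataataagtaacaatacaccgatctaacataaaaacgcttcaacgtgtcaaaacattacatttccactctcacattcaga

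GSTU19, GSTU24 and GSTU25 each held 1 TGACG in this window, that of GSTU19 in the 50 bases after the start, GSTU28 held none of the motifs searched, and GSTU17 held 1 CACGTG, the G-box. Over the whole family, 17 of 37 windows held TGACG on either strand (45.9%), against 23.1% of 27443 windows of protein-coding genes. CACGTG was found in 3 of 37 (8.11%, against 7.68%). GCCGCC, the core of the GCC-box bound by ERF factors, was found in 4 of 37 (10.8%, against 2.57%). TGACG and CACGTG can share bases and were counted separately. The matches are letters in a window and were not tested as binding sites, and because of tandem duplication the windows of neighbouring members are not independent.

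By position, 25 of the 37 members stood in 8 arrays of neighbours no more than 20000 bases apart. The largest array held GSTU1 to GSTU7 on chromosome 2 (12617936 to 12632538), followed by GSTU19 to GSTU23 on chromosome 1 (29467412 to 29488007). GSTU24, GSTU25 and GSTU26 stood side by side on chromosome 1 (5869543 to 5876620). Because the libraries read 3′ ends, the last 300 bases of the longest transcript of each member were compared. In 666 pairs the longest identical run had a median of 9 bases, and 1 pair shared more than 30 bases (GSTF2 and GSTF3, 37 bases). Levels of that pair are uncertain to the extent that reads were split between them. GSTU17 and GSTU18 overlap on the same strand, so their reads could also be shared.

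The 4 libraries held 846 and 2876 cells in lbd_quad and 1746 and 5061 cells in WT (replicates 1 and 2), with 7073293 to 21280667 UMIs (unique molecular identifiers, 1 per captured transcript). Median UMIs per cell were 6364 and 2522 in lbd_quad, and 2444 and 2090 in WT, so lbd_quad replicate 1 stood apart in depth. Pairs of libraries shared 0 to 3 cell barcodes. Of the mutated genes, LBD12 averaged 0.335 and 0.142 UMIs per 10000 in the lbd_quad libraries, against 2.55 and 1.27 in the WT libraries, and LBD6, LBD15 and LBD36 had 3 to 187 UMIs per library. The levels of LBD6 and LBD15 overlapped between the genotypes, and those of LBD36 were higher in both lbd_quad libraries (0.0223 and 0.0270) than in WT (0.0147 and 0.0214); a 3′ tag outside a mutated stretch checks nothing. Clustering without the members, the pathway genes or the markers gave 29 clusters. Of these, 16 were named for 8 classes by marker genes and 13 were left unnamed, with 66.0% and 46.7% of the cells of the lbd_quad libraries and 53.4% and 43.1% of the cells of the WT libraries. Unnamed clusters 1, 2 and 12 together held 59.2% and 30.5% of lbd_quad cells, against 4.30% and 2.53% of WT cells. A class was compared if each library held 20 or more of its cells: root cap-like, cortex-like, endodermis-like, phloem-like and S phase-like cells. Phloem-like clusters 15 and 23 were named from SUC2, SMXL5 and BAM3 alone, 3 of the 14 phloem markers. None of these was among the leading genes of either cluster. Cluster 15 held 52.8% and 52.8% of the class in lbd_quad and 65.4% and 56.2% in WT. The name of most phloem-like cells therefore rests on few markers. Clusters 21 and 24 had 5 and 9 raised.

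Throughout, a level is the mean over cells of UMIs per 10000 UMIs of the cell. A 3′ library gives about 1 tag per captured transcript whatever its length, so levels were not divided by gene length. A pair of values gives replicates 1 and 2 of the genotype named.

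A few members carried most of the family's transcripts. The summed level of the 37 genes was 108 and 102 in lbd_quad and 146 and 103 in WT, and the 8 highest members held 79.7% to 83.2% of it. GSTF8 (AT2G47730), a phi enzyme whose promoter is a known root marker of oxidative stress, alone held 26.2% to 28.8%. Its level was 28.3 and 27.1 in lbd_quad, against 40.2 and 29.7 in WT. GSTF10 (AT2G30870, ERD13), a phi gene first found by its early response to dehydration, had 16.7 and 12.6 in lbd_quad and 21.0 and 10.6 in WT. These levels overlapped between the genotypes for GSTF10 and did not for GSTF8.

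Among the tau genes, GSTU19 had the highest mean over the 4 libraries, with 7.83 and 6.24 in lbd_quad and 18.7 and 9.66 in WT. GSTU6 had 10.2 and 9.01 in lbd_quad, against 7.80 and 6.59 in WT. GSTU25, which with GSTU24 is known to detoxify the explosive TNT, had 7.27 and 5.71 in lbd_quad, against 11.6 and 7.53 in WT. GSTU19 and GSTU25 were thus lower, and GSTU6 higher, in both lbd_quad libraries than in either WT library. GSTU5, known as an auxin-induced gene, had 11.2 and 6.81 in lbd_quad and 8.38 and 4.51 in WT. GSTF9, a neighbour of GSTF10, had 3.81 and 11.2 in lbd_quad and 5.64 and 8.38 in WT. The replicates of GSTU5 and GSTF9 differed more than the genotypes did. GSTU26 had 4.42 and 3.94 in lbd_quad, against 7.62 and 5.25 in WT.

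**Figure D1:**
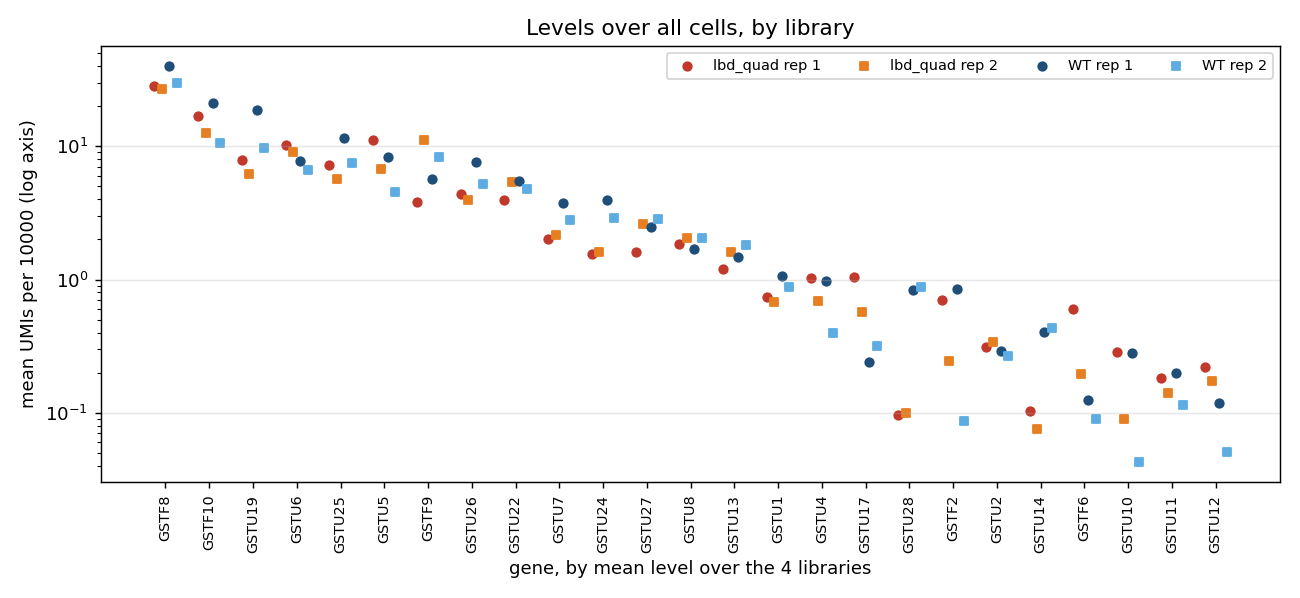
Level of each of the 25 members that passed the filter, as mean UMIs per 10000 over all cells (log axis), with 1 point per library. GSTF8 lies at the top with 27.1 to 40.2, and the points of GSTU28 and GSTU14 separate by genotype, lower in lbd_quad.

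Over all cells, 25 members had a mean of at least 0.1 over the 4 libraries and were tested (20 tau, 5 phi). The other 12 did not pass: GSTU3, GSTU9, GSTU16, GSTU18, GSTU20, GSTU21, GSTU23, GSTF3, GSTF7, GSTF12, GSTF13 and GSTF14. These include GSTF12 (TT19), which is needed to bring anthocyanins to the vacuole, and GSTF3, with 16 UMIs in all. The test was limma on log2(level + 0.1) with Benjamini-Hochberg adjustment over 9509 genes, and fold changes on this scale understate the change of low genes.

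One member fell in lbd_quad over all cells. GSTU28 had 0.0962 and 0.0994 UMIs per 10000 in lbd_quad (96 and 92 UMIs), against 0.839 and 0.883 in WT (498 and 1414 UMIs). The replicates of each genotype lay close together and the genotypes did not overlap. The log2 fold change was -2.28 (SE 0.23, limma adjusted p = 0.0207), and GSTU28 was 1 of 36 genes called among 9509 (0.379%). In WT its level was highest in hair-cell epidermis-like cells, with 8.17 and 8.77, against at most 0.382 in the libraries of the other named classes; WT replicate 1 cells of unnamed cluster 11 had 2.47. Hair-cell epidermis-like cells made up 0.355% and 1.18% of the lbd_quad libraries, against 3.61% and 6.46% of the WT libraries, and the summed level of the 8 hair-cell markers over all cells was 0.138 and 0.308 in lbd_quad, against 0.633 and 1.74 in WT. When all libraries were given the same makeup of 17 clusters, the log2 fold change was -1.43 and the call was lost (limma adjusted p = 0.368). Those 17 had at least 5 cells in every library, which left out hair-cell cluster 14 and cluster 11. That fit therefore could not test the share of hair cells. The call was also lost without the filter, with UMIs summed over cells and with voom (adjusted p = 0.151, 0.205 and 0.343). In mixed cells, fewer cells of a type and less RNA per cell cannot be told apart.

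Within the hair-cell cluster itself, lbd_quad replicate 2 (34 cells) had 3.92 UMIs of GSTU28 per 10000, against 8.17 and 8.77 in WT, and lbd_quad replicate 1 had 3 cells and gives no value. GSTU14 shared this pattern. It had 0.103 and 0.0761 over all cells in lbd_quad, against 0.401 and 0.436 in WT, with no overlap, and missed the threshold (log2 fold change -1.45, SE 0.23, limma adjusted p = 0.0590). Without 1 library its log2 fold change ran from -1.56 to -1.35. In the hair-cell cluster GSTU14 had 1.35 in lbd_quad replicate 2, against 2.85 and 2.06 in WT.

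At the other end stood GSTU17 (ERD9), a tau enzyme linked to light signalling and drought tolerance. It had 1.05 and 0.567 UMIs per 10000 over all cells in lbd_quad, against 0.239 and 0.317 in WT. The genotypes did not overlap, and the log2 fold change was 1.22 (SE 0.32, limma adjusted p = 0.237). Without 1 library the log2 fold change ran from 0.83 to 1.61, and with the same makeup of clusters it was 0.24. GSTF6, a phi gene of camalexin synthesis, had 0.601 and 0.197 in lbd_quad, against 0.125 and 0.0900 in WT, without overlap (log2 fold change 1.14, SE 0.39, limma adjusted p = 0.422). Its log2 fold change ran from 0.52 to 1.76 without 1 library. Over the 25 members tested, 9 were lower and 5 higher in both lbd_quad libraries than in either WT library, that is 9 against a background of 17.8% of all genes and 5 against a background of 19.1%. By limma, 7 of the 25 had an unadjusted p under 0.05, where 8.02% of all genes did, and 4 of them were lower in lbd_quad, where 4.53% of all genes were. The median log2 fold change was -0.18 for the 20 tau genes and -0.04 for the 5 phi genes, against 0.0063 for all genes tested.

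The family was not spread evenly over cell types. Unnamed cluster 12 had the highest summed level, 262 UMIs per 10000, of which 168 was tau. It held 60 and 163 lbd_quad cells and 27 and 31 WT cells, and its 10 leading genes include CYP71A12, a P450 of indolic defence compounds, and the peroxidase gene PRXCB. There GSTU5 had 64.4 and 43.9 in lbd_quad and 37.96 and 31.6 in WT, and GSTF8 had 57.8 and 74.1 in lbd_quad and 72.9 and 61.4 in WT. Of the 37 members, GSTU1, GSTU2, GSTU4, GSTU5, GSTU6, GSTU10, GSTU17, GSTU24, GSTF7 and GSTF8 reached their highest cluster level in cluster 12. The share of all genes that did so was not counted, so this is not shown to be particular to the family. The lowest sums were 44.5 in xylem-like cluster 13 and 47.4 in dividing cluster 25.

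**Figure D2:**
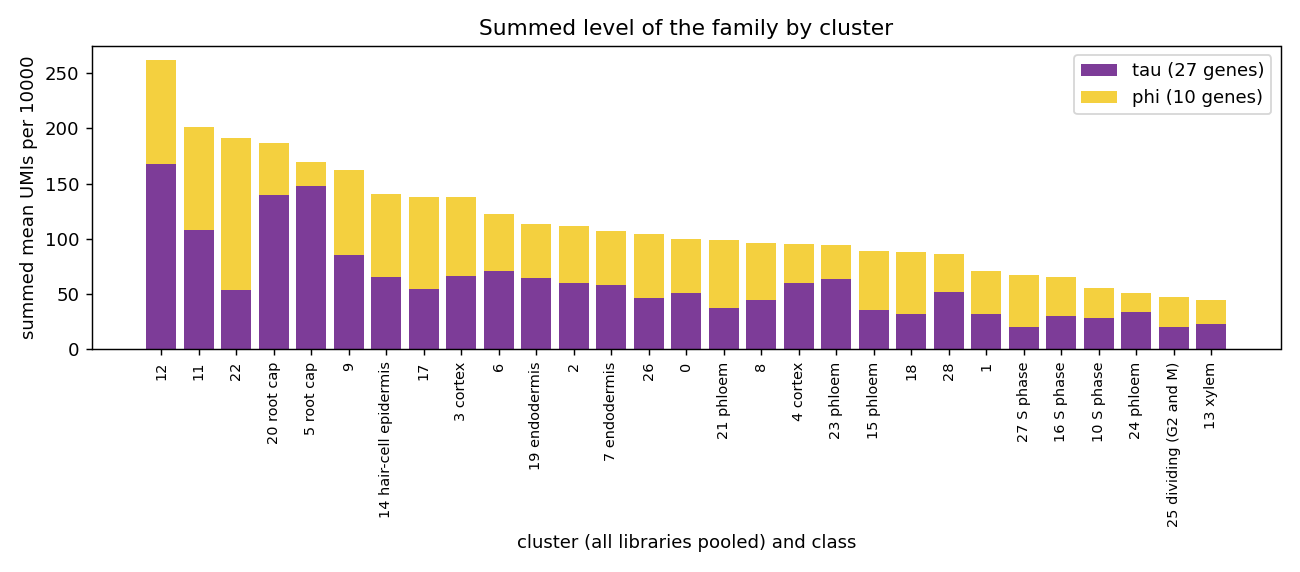
Summed mean UMIs per 10000 of the 27 tau genes (lower part of each bar) and 10 phi genes (upper part) in each of the 29 clusters, libraries pooled. The sums run from 262 in unnamed cluster 12 to 44.5 in xylem-like cluster 13, and tau genes make up most of the sum in root cap-like clusters 5 and 20.

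For 6 members the lowest library of one class lay above every library of the other 4 classes. Of the 23 members compared, 3 did so in root cap-like cells, where 4.95% of 9249 genes did, 2 in endodermis-like cells (2.37%) and 1 in phloem-like cells (4.98%). None did in S phase-like or cortex-like cells, where 6.3% and 2.65% of all genes did. Classes came from clustering, so these are descriptions without a test.

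GSTU25, GSTU22 and GSTU7 stood highest in root cap-like cells. GSTU25 had 67.0 and 94.1 UMIs per 10000 there in lbd_quad and 91.4 and 63.5 in WT, 24.5 times its mean in the other classes. GSTU22 had 20.4 and 72.0 in lbd_quad and 18.8 and 21.9 in WT. GSTU7, linked to tolerance of the herbicide paraquat, had 9.69 and 16.9 in lbd_quad and 21.2 and 15.0 in WT. The genotypes overlapped for GSTU25 and GSTU7, and GSTU22 of lbd_quad replicate 2 stood above the other libraries. Both root cap-like clusters held these genes, GSTU25 at 82.3 in cluster 5 and 50.5 in cluster 20. The lbd_quad libraries had 21 and 26 such cells, so 1 library or few cells can move these means, and the 10 root cap markers summed to 456 and 378 in lbd_quad, against 214 and 77.9 in WT.

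GSTU8 and GSTU27 were the endodermis-like members. GSTU8 had 7.83 and 5.11 in lbd_quad and 3.30 and 6.73 in WT. GSTU27 had 8.04 and 6.94 in lbd_quad and 7.98 and 11.3 in WT, 5.45 times its mean in the other classes. The 2 genes favoured different clusters of the class: in cluster 19, marked by the Casparian strip genes CASP1 to CASP5, GSTU8 had 16.6 and was highest of all clusters, whereas GSTU27 was highest in cluster 7, with 9.63, which is marked by SCR, MYB36 and GSO1. Of these markers, MYB36 and GSO1 were raised in cluster 19 too, and SCR was not. GSTU27 also had 9.20 in cluster 17, which is unnamed and so was left out of the comparison of classes. GSTU13, an enzyme of indole glucosinolate metabolism in immunity, was the phloem-like member, with 2.30 and 2.32 in lbd_quad and 3.50 and 2.59 in WT. Its highest cluster levels, 5.82 and 5.06, were in unnamed clusters 17 and 22. GSTU23, below the filter over all cells, had its highest level, 0.661, in phloem-like cluster 21, marked by the companion cell genes SUC2, NAKR1 and PP2-A1.

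**Figure D3:**
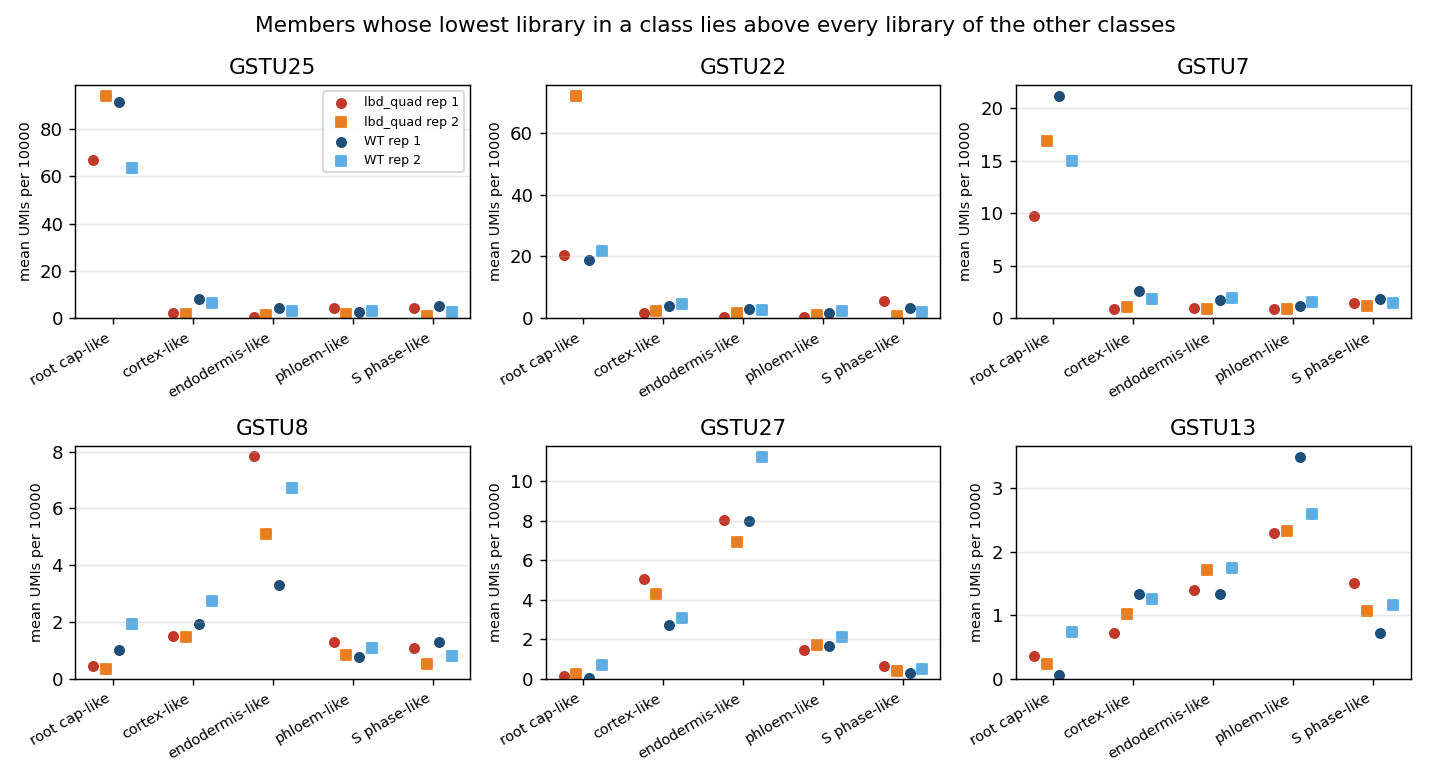
Mean UMIs per 10000 of 6 members in the 5 classes, with 1 point per library, lbd_quad left of WT in each class. GSTU25 in root cap-like cells lies at 63.5 to 94.1, and GSTU27 in endodermis-like cells at 6.94 to 11.3.

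In the WT libraries alone, 7 classes had at least 20 cells, and 16 members stood above all other classes in 1 of them. Hair-cell epidermis-like cells then held GSTU14, GSTU26, GSTU28 and GSTF8 (4 members, where 7.8% of 9299 genes did so), and root cap-like cells GSTU1, GSTU2 and GSTU3 beside the 3 above (6%). Cortex-like cells held GSTU6 and GSTU24 (3.75%), endodermis-like cells GSTU11 beside GSTU8 and GSTU27 (3.46%) and phloem-like cells GSTU13 (4.41%). None was highest in xylem-like or S phase-like cells, where 5.99% and 7.52% of all genes were. GSTF8 had 62.2 and 50.7 UMIs per 10000 in the hair-cell cluster of WT, and GSTU26 12.6 and 10.8. GSTF9 had its highest level in unnamed cluster 22, with 93.0, where GSTF2, a phi protein that binds heterocyclic plant compounds, also peaked at 6.85. Among the 5 classes GSTF9 was highest relative to the rest in S phase-like cells (2.24 times). Its values there, 0.251 and 19.4 in lbd_quad and 2.63 and 29.4 in WT, differed between replicates far more than between genotypes, and different clusters held most of the class: cluster 16 in lbd_quad replicate 1, cluster 10 in WT replicate 1 and cluster 27 in the replicates 2. In cortex-like cells the highest such ratio was that of GSTU26 (2.19), with 7.78 and 7.62 in lbd_quad and 10.097 and 7.21 in WT.

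Across the 29 clusters, some neighbouring members varied together. Over 300 pairs of the 25 members the median Pearson r was 0.204, given as a description because the clusters share libraries. The 22 pairs within an array had a median r of 0.591 (-0.20 to 0.93), and the other 278 pairs 0.188. Most of those 22 pairs lay in the array of GSTU1 to GSTU7, and neighbouring genes outside the family were not compared. GSTU4 and GSTU5, neighbours on chromosome 2, had an r of 0.93, as did GSTU25 and GSTU7, which lie on different chromosomes. GSTU25 and GSTU22 had 0.92 and GSTU28 and GSTU14 had 0.88, and neither pair shares an array. The neighbours GSTF9 and GSTF10 had 0.15, and GSTU13 and GSTU14 had -0.20.

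**Figure D4:**
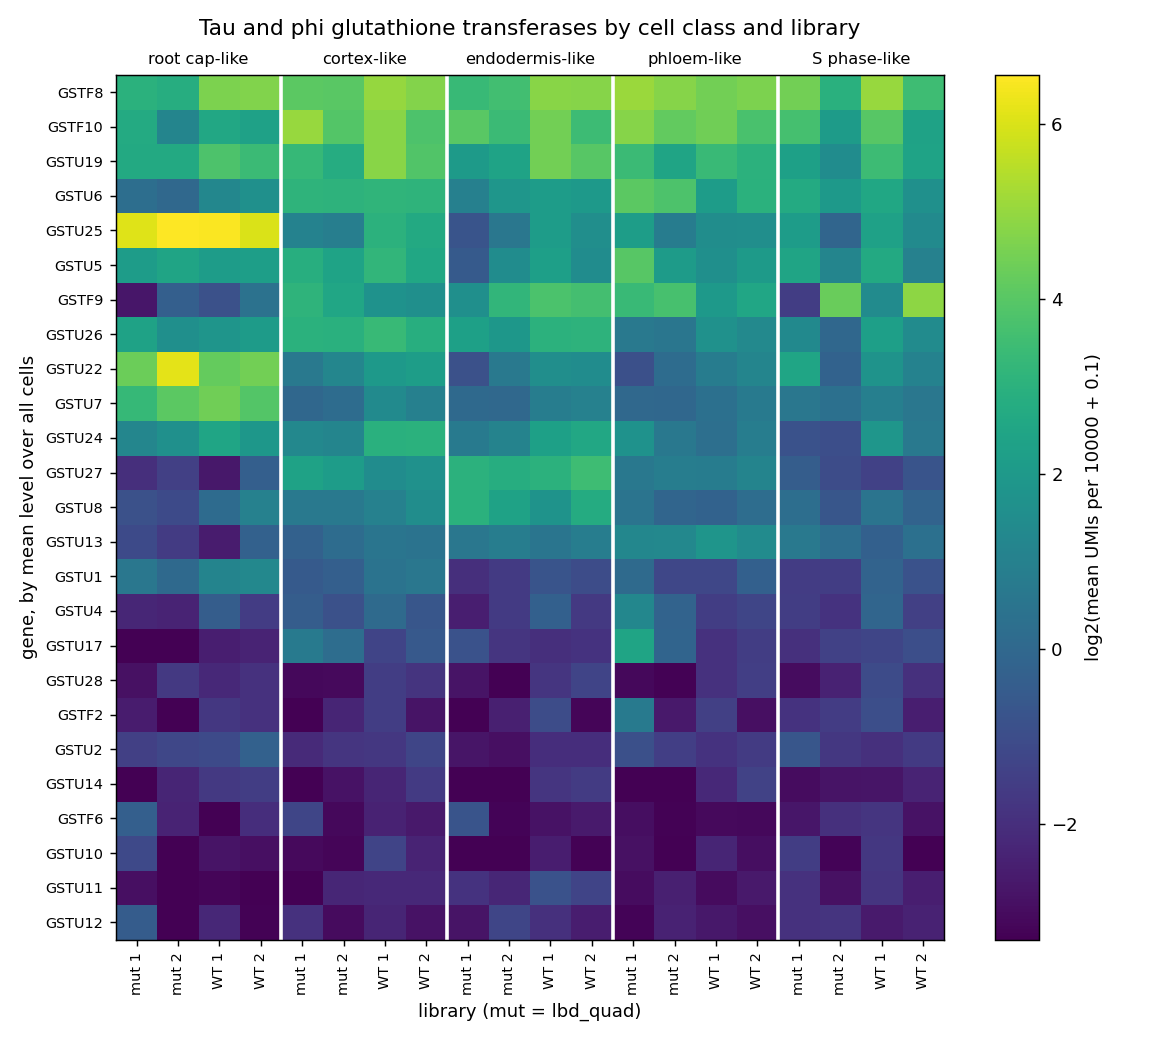
Levels of the 25 members as log2(mean UMIs per 10000 + 0.1), 1 row per gene and 1 column per library, in 5 classes. Root cap-like cells stand out for GSTU25, GSTU22 and GSTU7, and endodermis-like cells for GSTU8 and GSTU27.

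The genotypes were next compared within each class. In endodermis-like cells, GSTU19 fell in lbd_quad. This abundant tau transferase, active on many model substrates, had 4.07 and 5.24 UMIs per 10000 in lbd_quad, against 22.0 and 15.9 in WT. Both lbd_quad libraries were far below both WT libraries. The log2 fold change was -1.99 (SE 0.33, limma adjusted p = 0.0194), 1 of 74 genes called among 8586 (0.862%). The Casparian strip cluster 19 held 26.7% and 21.4% of the class in lbd_quad and 2.31% and 6.39% in WT, and the 10 endodermis markers summed to 171 and 92.0 in lbd_quad, against 24.4 and 40.0 in WT. Within cluster 7 alone GSTU19 had 3.96 and 5.25 in lbd_quad, against 22.2 and 15.9 in WT. The part of cell makeup in the result was not tested. Without WT replicate 1 or WT replicate 2 the call was lost (limma adjusted p = 0.690 and 0.206), with log2 fold changes of -1.76 and -2.23.

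Most of the other members also had a negative fold change in these cells. Of 24 members tested, 19 had a negative log2 fold change, and the median was -0.94, against 0.0026 for all genes; 13 were lower at an unadjusted p under 0.05, where 5.05% of all genes were. In 15 members both lbd_quad libraries lay below both WT libraries (18.8% of all genes) and in 1 above (18.7%). The family summed to 63.2 and 67.5 in lbd_quad, against 132 and 116 in WT. GSTU24 had 1.57 and 2.05 in lbd_quad, against 4.82 and 5.98 in WT, and missed the threshold (log2 fold change -1.53, SE 0.32, limma adjusted p = 0.0617). GSTU25 had 0.489 and 1.41 in lbd_quad, against 4.35 and 2.86 in WT (log2 fold change -1.95, SE 0.45, limma adjusted p = 0.0918). GSTF8 had 9.88 and 11.8 in lbd_quad, against 28.1 and 26.7 in WT (log2 fold change -1.33, SE 0.31, limma adjusted p = 0.101). In all 3 the genotypes did not overlap. Without 1 library the log2 fold change ran from -1.71 to -1.35 for GSTU24 and from -2.625 to -1.27 for GSTU25. Such fits leave 1 genotype with no spread of its own. GSTU8 and GSTU27, the members highest in this class among the classes compared, had log2 fold changes of 0.42 and -0.34 and overlapped between the genotypes.

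In cortex-like cells the TNT-detoxifying pair fell. GSTU24 had 2.34 and 2.19 UMIs per 10000 in lbd_quad, against 7.72 and 7.90 in WT. GSTU25 had 2.01 and 1.76 in lbd_quad, against 8.04 and 6.25 in WT. For both genes the WT libraries lay well above the lbd_quad libraries. The log2 fold changes were -1.74 (SE 0.30, limma adjusted p = 0.0291) for GSTU24 and -1.86 (SE 0.32, limma adjusted p = 0.0281) for GSTU25, 2 of 50 genes called among 8630 (0.579%). GSTU26, the third gene of their array, had a log2 fold change of -0.15 and overlapped between the genotypes. Both cortex-like clusters showed the difference: GSTU24 had 2.67 and 2.54 in lbd_quad, against 10.4 and 11.2 in WT, in cluster 3, and 2.12 and 2.02 in lbd_quad, against 7.12 and 6.59 in WT, in cluster 4. The 5 cortex markers summed to 8.17 and 4.95 in lbd_quad, against 10.6 and 12.4 in WT, and their part in the result was not tested.

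Leaving out any 1 of the 4 libraries lost both cortex calls, with log2 fold changes of -1.79 to -1.70 for GSTU24 and -2.04 to -1.68 for GSTU25 (limma adjusted p = 0.0719 to 0.197 and 0.0640 to 0.226). Neither these calls nor that of GSTU19 in endodermis-like cells passed without the filter, with summed UMIs or with voom. Of the 22 members tested in these cells, 16 had a negative log2 fold change, with a median of -0.50 against 0.02 for all genes. At an unadjusted p under 0.05, 9 were lower in lbd_quad (4.31% of all genes). Both lbd_quad libraries lay below both WT libraries in 12 members (17.5%) and above them in 3 (19.3%). GSTU19 had 9.84 and 6.85 in lbd_quad, against 27.4 and 14.6 in WT, without overlap (log2 fold change -1.28, SE 0.37, limma adjusted p = 0.223). GSTF9 and GSTU17 had positive log2 fold changes of 1.15 (SE 0.33, limma adjusted p = 0.206) and 1.40 (SE 0.39, limma adjusted p = 0.195).

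In phloem-like cells no member passed the threshold, nor did any of 8999 genes (0%), of which 735 had an unadjusted p under 0.05; voom called 0, with 544. Here 13 of 22 members had a positive log2 fold change and 9 a negative one, with a median of 0.29 against -0.05 for all genes. By limma, 5 members were higher and 4 lower at an unadjusted p under 0.05, beside the 735 of 8999 genes in either direction. In 8 members both lbd_quad libraries lay above both WT libraries (17.1% of all genes) and in 6 below (20.6%). GSTU17 had 5.35 and 0.807 UMIs per 10000 in lbd_quad, against 0.168 and 0.243 in WT, without overlap (log2 fold change 2.87, SE 0.75, limma adjusted p = 0.275). Its value in lbd_quad replicate 1 was far above the other 3 libraries, and without that library the log2 fold change was 1.58. Without lbd_quad replicate 2 it was 4.17. GSTU4 had 2.25 and 0.774 in lbd_quad, against 0.243 and 0.323 in WT (log2 fold change 1.91, SE 0.48, limma adjusted p = 0.253). GSTU23 had 0.778 and 0.290 in lbd_quad, against 0.0394 and 0.0368 in WT (log2 fold change 2.08, SE 0.43, limma adjusted p = 0.193). Both WT values lay below 0.1, so GSTU23 passed the filter only through lbd_quad, and it had 108 UMIs over all cells. Its fold change depends on the pseudocount and ran from 0.54 to 3.34 over the other fits with all 4 libraries. Both were highest in lbd_quad replicate 1, and passed without lbd_quad replicate 2 (limma adjusted p = 0.0280 and 0.0285). GSTU6 had 16.7 and 13.7 in lbd_quad, against 4.34 and 7.77 in WT, with no overlap (log2 fold change 1.36, SE 0.36, limma adjusted p = 0.276). Phloem-like cluster 23, named from SUC2, SMXL5 and BAM3 alone, held 16.7% and 12.3% of the class in lbd_quad and 2.36% and 15.2% in WT. GSTU6 had 22.8 there, GSTU4 2.03 and GSTU17 2.01, for each gene the second highest cluster level. The 14 phloem markers summed to 14.3 and 13.7 in lbd_quad, against 8.15 and 8.59 in WT. The part of this makeup and of the markers was not tested.

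In root cap-like cells 74 of 6354 genes were called (1.16%) and no member. By limma 2 of the 25 members tested had an unadjusted p under 0.05, both lower in lbd_quad, where 11% of all genes were, and voom called no member. The median log2 fold change of all genes was itself -0.44 in this class, or -0.21 with size factors, beside -0.53 for the members. GSTF8 had 7.81 and 7.05 in lbd_quad, against 24.3 and 25.6 in WT (log2 fold change -1.73, SE 0.60, limma adjusted p = 0.181), while GSTU25 had a log2 fold change of 0.06. Cluster 20 held 14.3% and 3.85% of the root cap-like class in lbd_quad, against 29% and 36.6% in WT. The phi genes summed to 47.2 in cluster 20 and 21.4 in cluster 5, and the part of this makeup was not tested. In S phase-like cells limma and voom called none of the genes tested (0% of 8857 by limma), with 254 (2.87%) and 316 at an unadjusted p under 0.05, and 1 of the 25 members tested was among the 254. That member was GSTU24, with 0.469 and 0.424 in lbd_quad, against 3.52 and 1.48 in WT (log2 fold change -2.13, SE 0.57, limma adjusted p = 0.804). The 5 cortex markers summed to 0.0205 and 0.710 in these cells of lbd_quad, against 5.20 and 2.08 in WT. The clusters that held most of the class also differed between libraries, and the part of both was not tested.

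**Figure D5:**
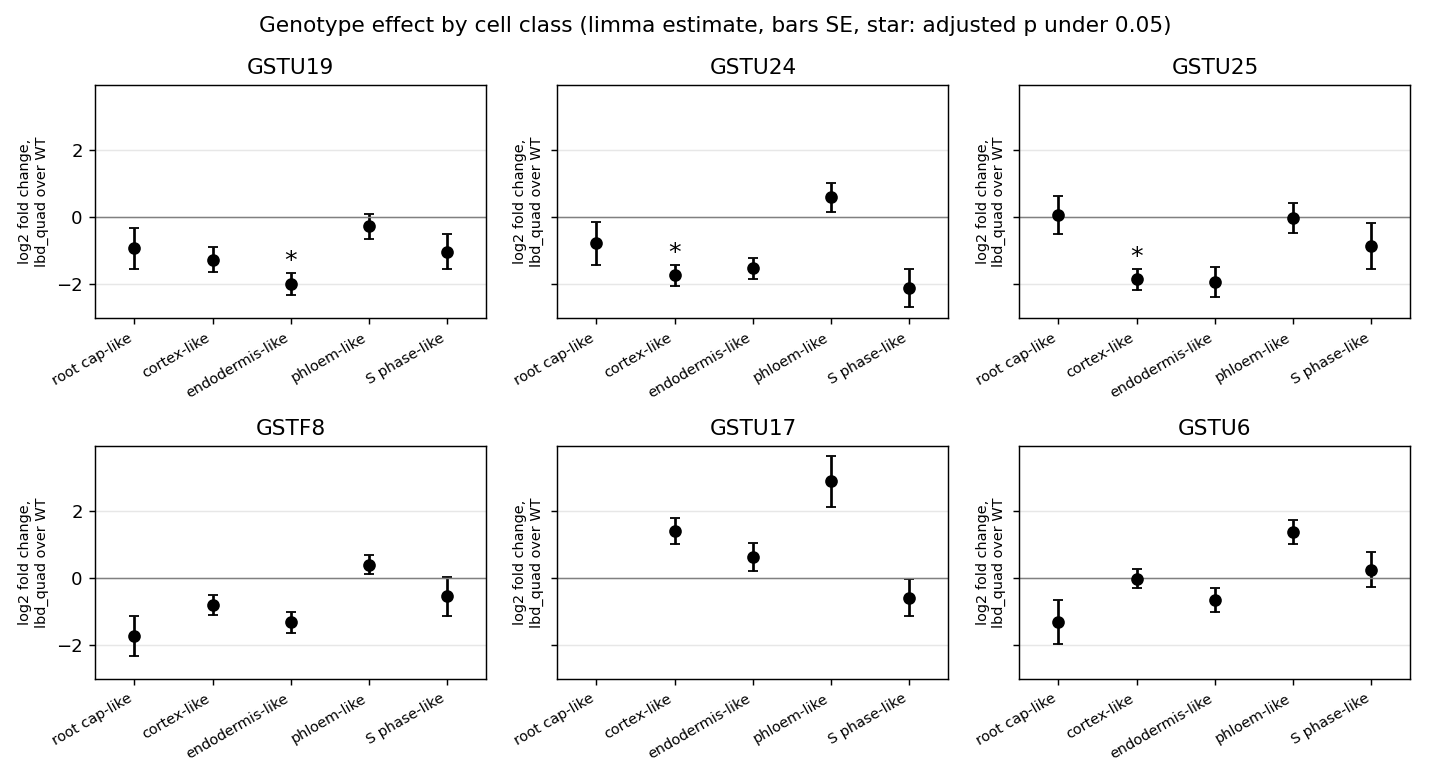
Log2 fold change of lbd_quad over WT for 6 members in each class, with bars for the standard error and a star where the limma adjusted p was under 0.05; GSTU17 lay below the filter in root cap-like cells. GSTU19 is called in endodermis-like cells (-1.99) and GSTU24 and GSTU25 in cortex-like cells (-1.74 and -1.86), while the estimates in phloem-like cells lie between -0.28 and 2.87.

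Whether the genotype effect itself differed between the 5 classes was tested in one fit over class and library. It did for 87 of 9249 genes (0.941%), of which 1 was a member. GSTU17 had log2 fold changes of 1.40 in cortex-like, 0.61 in endodermis-like, 2.87 in phloem-like, -0.92 in root cap-like and -0.59 in S phase-like cells (limma F test, adjusted p = 0.0445). In S phase-like cells it had 0.161 and 0.271 in lbd_quad, against 0.320 and 0.424 in WT, and in cortex-like cells 1.58 and 1.04 in lbd_quad, against 0.302 and 0.584 in WT. In root cap-like cells it lay below the filter of the class's own fit, so that value depends on the pseudocount. For GSTU19, GSTU24 and GSTU25 the same test gave adjusted p = 0.443, 0.0989 and 0.390, so the calls in 1 class are not shown to be particular to it. In 7 of 31 members tested in any class (22.6%), both lbd_quad libraries lay above both WT libraries in one class and below both in another, beside 13.4% of 12213 genes.

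The enzymes around the family were read from 8 lists of genes. Of those tested over all cells, none of 7 genes of glutathione synthesis and turnover passed the threshold, and none of 4 vacuolar ABCC pumps, 8 genes of the electrophile and xenobiotic response, 6 glutathione peroxidase-like genes, 5 transferases of other classes, 3 genes of anthocyanin synthesis or 3 of camalexin synthesis, and voom called no gene over all cells. At an unadjusted p under 0.05 by limma, 3 pumps and 1 xenobiotic response gene were lower in lbd_quad, as were 4.53% of all genes. By the same measure 1 camalexin gene was higher, where 8.02% of all genes had such a p in either direction. All 4 pumps were lower in both lbd_quad libraries than in either WT library, as were 17.8% of all genes, with a median log2 fold change of -0.95. The TGA factors and SCL14 lay below the filter.

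Within the classes, 1 gene of these lists was called. CYP81D11, a cytochrome P450 induced by xenobiotics and cis-jasmone, had 0.127 and 0.696 UMIs per 10000 in endodermis-like cells of lbd_quad, against 3.35 and 2.94 in WT, without overlap. Its log2 fold change was -2.93 (SE 0.51, limma adjusted p = 0.0252), and the call was lost without WT replicate 1 or WT replicate 2 (limma adjusted p = 0.610 and 0.250). It was also lost with a pseudocount of 0.01, without the filter, with summed UMIs and with voom (adjusted p = 0.0618, 0.538, 0.191 and 0.268). In the same cells all 7 tested genes of the xenobiotic response had a negative log2 fold change, with a median of -0.96, beside -0.94 for the tau and phi members. OPR1, a reductase of oxidised lipids that responds to xenobiotics, had 2.61 and 6.38 in lbd_quad, against 17.1 and 14.7 in WT (log2 fold change -1.93, SE 0.41, limma adjusted p = 0.0693). Genes of glutathione synthesis and turnover had a median of -0.10 there.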

How the data were processed

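Protoplasts of lbd_quad and WT root tips were sequenced as 10x 3′ version 2 libraries, per the labels' protocols. Cell Ranger 7.0.1 and Seurat are named in the submitters' processing notes. The genome build and the filters on cells are not given in the sources used here. The authors deposited a matrix of natural log (ln) values. Exponentiating and subtracting 1 gave 10000 per cell, and 100% of values came out as whole UMIs within 0.01. The 3315 columns of no sample were not used. The main test used no count model, because the deposited unit is logarithmic. As an alternative, voom was run on the recovered UMIs summed over cells.

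Cells (at least 562 UMIs) were clustered with scanpy 1.11.5 on 2000 variable genes, 40 components and 15 neighbours at Leiden resolution 1. Scrublet marked 1 of 10529 cells, too few to rely on, and none was removed. Clusters were named where at least 3 markers were 2-fold raised and in 10% of cells, with fewer markers of every other class, and the 10 leading genes did not go against the name.

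Library means were tested with limma 3.58.1 (R 4.3.3) on log2(mean + 0.1), genes with a mean of at least 0.1, genotype only, Benjamini-Hochberg 0.05. Effects between classes were tested with library as a random block. On simulated data over 9509 genes for all cells, the test recovered 122 of 200 genes at a simulated log2 fold change of 2 (beside 5 false calls) and 0 of 200 at 1. Values are given for members called in the fit of any comparison (of those that passed only under an alternative, some), the 8 highest, the largest and smallest fold change over all cells, the leading ratio per class, those highest in a class, and called pathway genes; others named were chosen after their values were seen. The members and lists were chosen with earlier results of these data known. Library totals of 7073293 to 21280667 UMIs, and 21 cells in the smallest class compared, limit precision. Alternatives were other pseudocounts, filters, scalings, sums, voom, depth and cell number, a replicate block, left-out libraries, resolutions and cluster makeup.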

Additional observations from a re-analysis of the deposited data

Results flagged for a closer look

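The genotype effect of GSTU17 differed between the classes (limma F test, adjusted p = 0.0445). Its log2 fold change was 1.40 in cortex-like, 0.61 in endodermis-like and 2.87 in phloem-like cells, where both lbd_quad libraries were above both WT libraries, and -0.59 in S phase-like cells, where both were below. Different clusters held most of the S phase-like class in different libraries, and the part of that makeup was not tested.

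In 6 other members both lbd_quad libraries lay above both WT libraries in one class and below both in another; the F test of the difference between classes gave an adjusted p over 0.05 for each. Among the members tested in any class 22.6% did so, GSTU17 included, beside 13.4% of 12213 genes. GSTU2 had log2 fold changes of 0.54 in phloem-like, -0.47 in cortex-like and -0.67 in root cap-like cells (limma adjusted p = 0.350). GSTU4 had 1.91 in phloem-like, -0.94 in S phase-like and -1.30 in root cap-like cells (limma adjusted p = 0.0989). GSTU5 had 1.20 in phloem-like and -1.40 in endodermis-like cells (limma adjusted p = 0.511). GSTU6 had 1.36 in phloem-like, -0.67 in endodermis-like and -1.31 in root cap-like cells (limma adjusted p = 0.111). GSTF8 had 0.40 in phloem-like, -0.81 in cortex-like, -1.33 in endodermis-like and -1.73 in root cap-like cells (limma adjusted p = 0.295). GSTF9 had 1.15 in cortex-like, 1.26 in phloem-like and -1.29 in endodermis-like cells (limma adjusted p = 0.585). The higher value was in phloem-like cells in each of these members, and for GSTF9 in cortex-like cells too. The makeup of the classes by cluster differed between libraries, and its part in these differences was not tested.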

How the results depend on the processing

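Calls depended on the processing. Of 738 repeated estimates for 51 gene results, 10 changed sign, 35 lost the threshold and 39 newly passed it. The sign changes fell on GSTF10 (5), GSTF9 (4) and GSTU5 (1). Many of the 51 results were chosen with their fold changes known, so few sign changes do not show that directions are stable. Over all cells, 36 genes were called, but 18 with pseudocount 1, 12 with size factors, 1 each with summed UMIs and with the same makeup of clusters, 0 without a filter (1555 at an unadjusted p under 0.05), 0 with voom (723), 0 without clusters 1, 2 and 12 (1184; chosen after seeing the data), and 150 to 287 without 1 library. The member called, GSTU28, was not called without a filter, with summed UMIs, voom, the same makeup or without those clusters (0 members each), and 2 to 4 members were called without 1 library. Over the 5 classes, 198 calls became 128 with pseudocount 1, 104 with 0.01, 129 with size factors, 82 with summed UMIs, 15 with voom, 111 in cells with at least 2000 UMIs, 0 without a filter and 2 to 1011 without 1 library. The 3 member calls became 0 without a filter, with summed UMIs and with voom, 1 in cells with at least 2000 UMIs, 5 with equal numbers of cells, and 0 to 16 without 1 library. With 7 classes of WT cells, chosen after seeing the data, 16 members in place of 6 were highest in a class. Replicate numbers are not stated to pair libraries. The replicate difference correlated between genotypes (r = 0.514 over 9509 genes), and a replicate block gave 473 genes and 5 members over all cells, 826 and 13 within classes, and 0 members by class (GSTU17, adjusted p = 0.0761). GSTF10 over all cells (log2 fold change -0.04) changed sign with equal numbers of cells (0.07505), the same makeup (0.11) and without clusters 1, 2 and 12 (0.15), and ran from -0.53 to 0.46 without 1 library. GSTF9 (-0.07) became 0.26 with the same makeup and 0.63 without those clusters, and ran from -0.83 to 0.70 without 1 library. GSTU5 (0.50) became -0.19 without those clusters. The cause of these changes was not tested. At resolution 0.5 the S phase class had under 20 cells in some libraries and gave no value. When 1 library is left out, the lone library is assumed to vary like the other genotype.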
